A study of Arabidopsis thaliana with 8 samples.

Results

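The chloroplast genome of Arabidopsis thaliana carries the genes for core subunits of the photosynthetic complexes and for a bacterial-type RNA polymerase, and 47 of these genes were followed through shoot development. They were chosen by name and by annotation to the plastid chromosome. The members are 15 psb genes, 5 psa genes, 6 pet genes, 6 atp genes, rbcL, 10 ndh genes and 4 rpo genes, out of 13286 annotated genes measured in all. Each member was represented by 1 probe set of the Affymetrix ATH1 array. All plants were of the accession Landsberg erecta (Ler) and were raised in soil at 20 °C, with 10 h of light a day (short days). The groups were vegetative apices of the youngest plants, titled day 5 after sowing but described as day 7 in the source name (Apex_5DAS, called younger apices), vegetative apices of day 14 (Apex_14DAS, older apices), the first pair of leaves still expanding on day 14 (EL_14DAS, leaves 1+2, expanding leaves) and fully expanded leaves of day 35 (ML_35DAS, mature leaves). Each group had 2 arrays, and no label says whether the 2 came from separate plants, so every p-value below measures only the spread between these arrays. With 2 arrays in a group, the precision is limited.

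In the thylakoid membrane, photosystem II (psb genes) takes electrons from water, the cytochrome b6f complex (pet genes) passes them on to photosystem I (psa genes), and the ATP synthase (atp genes) uses the proton gradient that this builds up. RbcL is the large subunit of Rubisco, which fixes carbon dioxide, and the ndh genes encode a NADH dehydrogenase-like complex that carries electrons back from photosystem I to the plastoquinone pool. The rpo genes encode the core of the plastid-encoded RNA polymerase, which transcribes mainly photosynthesis genes, while the operon of rpoB itself is read by a phage-type polymerase encoded in the nucleus. Many of these genes lie in shared transcription units. Plastids of meristem cells are small proplastids, which develop into chloroplasts as a leaf grows.

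Values are linear MAS5 probe set intensities that were scaled so that all arrays had the same 2% trimmed mean. Differences are given in log2 units after 7.7 was added to each intensity, which shrinks the differences of weak signals. A difference is called when its Benjamini-Hochberg adjusted p, from limma fitted over all genes, lies below 0.05. Many members were weak: leaving out Apex_5DAS replicate 1, 22 of the 47 lay above the 30th percentile of every array, and 2 lay at or below it on all 7 arrays. With 8 arrays 44 members were strong enough to be tested, and with 7 arrays 43. The members atpI, ndhH and rpoB were not tested, nor was ndhF with 7 arrays. Replicates are given in the order 1 and 2 throughout.

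Apex_5DAS replicate 1 stood apart from the other arrays before any plastid gene was considered, so every result is given with all 8 arrays and with the 7 that remain without it. Its signal for 25S ribosomal RNA was 193, against 0.961 to 21.3 elsewhere, and its dap spike-in control was at 1.41, against 24.3 to 108. The ratio of its actin signal at the 3' end to that at the 5' end was 2.39. That ratio was 1.59 on replicate 2, 1.40 to 1.73 in older apices and expanding leaves, and 2.47 and 2.59 in mature leaves. In the 7-array fit the lone younger-apex array is assumed to vary like the other groups. Of the marker genes checked, all 5 measured markers of dividing cells (of 14 listed) were higher in older apices than in either leaf stage. Their summed intensity was 2059 and 2270 in older apices, 711 and 1030 in expanding leaves and 286 and 314 in mature leaves. The shoot meristem list had values for 3 of its 13 genes, CLV3, LAS and UFO. Their summed intensities were 42.2 and 43.6 in older apices and at most 34.4 in leaves. None of the 3 was at 0, but at least 2 were weak on every array, and all 3 on mature-leaf replicate 2. Only LAS was strong enough to be tested. It was called lower in mature leaves than in older apices, but expanding leaves and older apices were not called different. The root and seedling glucosidase PYK10, the measured gene of 8 root markers, gave 2652 and 2917 in younger apices, 1418 and 2204 in older apices, 173 and 244 in expanding leaves, and 8.72 and 13.4 in mature leaves. The list of mature or ageing leaf markers had 1 measured gene of 10, which was not highest in mature leaves. It gave 33.4 and 32.9 in older apices, 45.45 and 66.5 in expanding leaves, and 26.6 and 40.5 in mature leaves. These arrays measure whole organs, in which fewer cells of a type, fewer plastids in a cell and less RNA per plastid cannot be told apart.

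The 2 younger-apex arrays differed for nearly every member. On replicate 1, 46 of the 47 members were higher than on replicate 2, 43 of them more than 2-fold and 22 more than 10-fold in intensity. Among all 13286 genes, 1.53% were more than 10-fold higher on replicate 1, and the median log2 difference was -0.01. The median over the members was 2.54. For 41 members, replicate 1 of the younger apices held the highest value of all 8 arrays. The exception in direction was atpI, subunit a of the ATP synthase, at 2.94 and 8.32, both low signals.

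**Figure D1:**
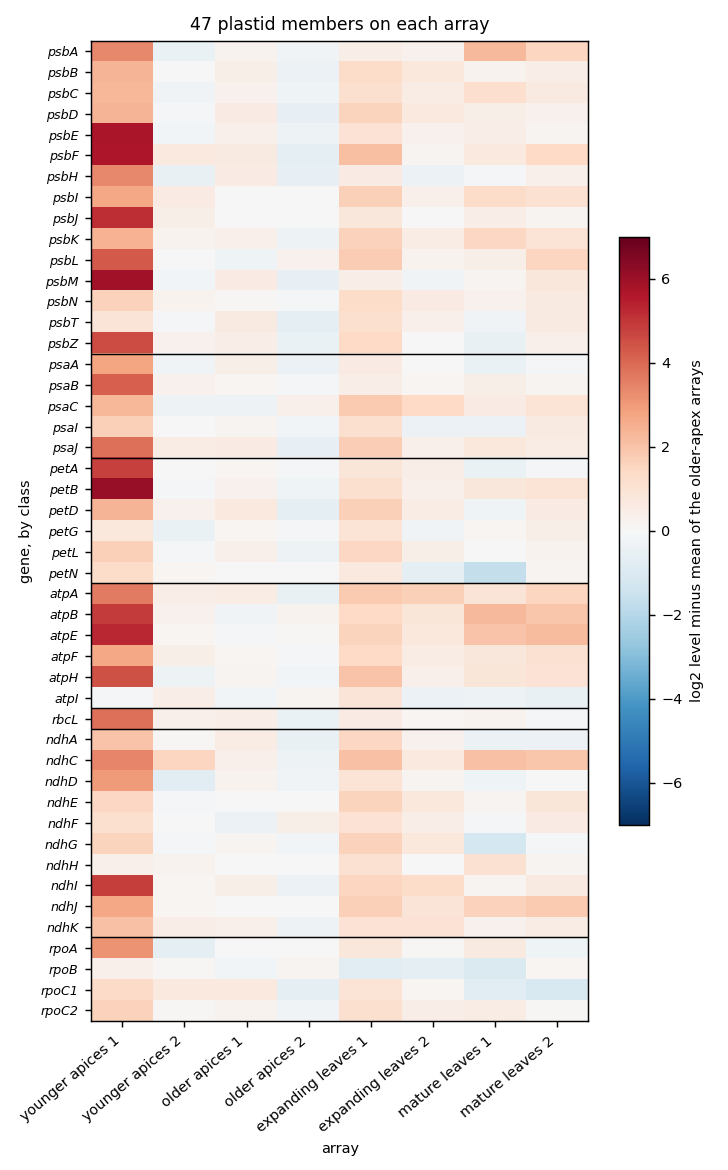
The heat map plots the log2 level of each of the 47 members (rows, by class) on each of the 8 arrays (columns), as the difference from the mean of the 2 older-apex arrays; red is higher and blue lower. The column of younger apices replicate 1 is the reddest for 41 members, and replicate 1 of the expanding leaves is the next for most.

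The genes for photosystem II and the ATP synthase differed most between these 2 arrays, and those of the polymerase least. The class medians of the log2 difference were 3.87 for atp, 3.83 for psb, 3.50 for rbcL, 2.97 for psa, 1.93 for pet, 1.80 for ndh and 1.09 for rpo. Within the psb class, psbM, which encodes a small subunit, read 3107 and 38.2 (a log2 difference of 6.08), and psbF, the beta subunit of cytochrome b559, read 2285 and 65.2 (4.98). At the other end psbT, another small subunit, read 33.5 and 12.7 (1.01). The largest difference of all members was that of petB, cytochrome b6, at 2411 and 25.3 (6.20). In the ndh class the range ran from ndhH at 2.68 and 1.87 (0.12), a low signal on both arrays, to ndhI at 833 and 24.9 (4.69). In the rpo class, rpoA read 759 and 48.9 (3.76), whereas rpoB read 16.2 and 11.4 (0.32), rpoC1 37.8 and 21.2 (0.66) and rpoC2 40.8 and 9.18 (1.52). So rpoA, the alpha subunit gene, had the largest difference of the 4 rpo genes. All 4 lay within the range of the photosynthesis genes, -0.59 to 6.20, and rpoC2 exceeded psbT. The 3 genes of the rpoB unit gave weaker signals than rpoA, and the pseudocount shrinks the differences of weak signals.

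**Figure D2:**
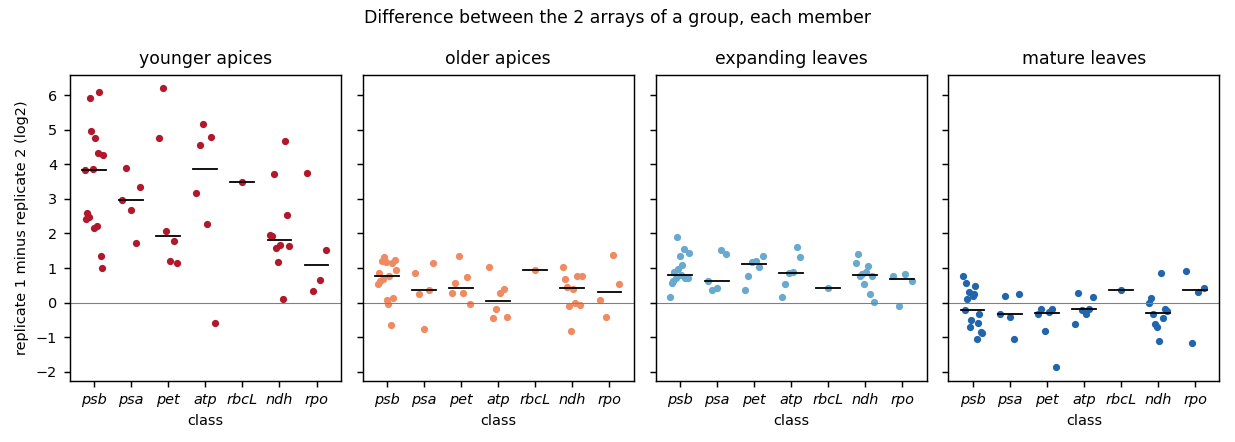
Each point is 1 member and shows replicate 1 minus replicate 2 in log2 units, for the 4 groups (panels) and the 7 classes (x axis); black bars are class medians. Differences reach 6.20 in younger apices, while they lie between -0.81 and 1.38 in older apices, -0.11 and 1.91 in expanding leaves, and -1.85 and 0.92 in mature leaves.

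Members of 1 transcription unit did not always share the size of this difference. The genes of the psbE-psbF-psbL-psbJ unit all differed strongly, by 4.32 to 5.91, those of psbK-psbI by 2.15 to 2.20 and those of atpB-atpE by 4.56 to 5.18. In contrast, the psbB-psbT-psbH-petB-petD unit ranged from 1.01 to 6.20, the atpI-atpH-atpF-atpA unit from -0.59 to 4.79 and the ndhH-ndhA-ndhI-ndhG-ndhE-psaC-ndhD unit from 0.12 to 4.69. The rpoB-rpoC1-rpoC2 unit lay between 0.32 and 1.52. Probe sets near the background on replicate 2, such as that of atpH at 239 and 1.23, leave the size of their own difference poorly determined.

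Other genes of the plastid genome moved with the members on that array. Of 34 listed plastid genes for ribosomal proteins and other functions, 22 were measured, and their summed intensity was 7158 on Apex_5DAS replicate 1 against 278 to 831 on the other arrays. The largest part of it was rps4, a ribosomal protein gene, at 4340.2 and 48.2. Nuclear genes for subunits of the same complexes were also higher there, but to a smaller degree. Their summed intensity, over the 8 of 42 listed genes that were measured, was 23136 on replicate 1 and 13589 on replicate 2. PSBY, a photosystem II protein imported from the cytosol, read 6923 and 3734, and NdhN, a nuclear subunit of the NADH dehydrogenase-like complex, 689 and 368. A list of mitochondrial nad and cox genes, added after the data were seen, had 17 probe sets with a median log2 difference of 0.50, and replicate 1 held the highest value for 6 of the 17. Like 25S ribosomal RNA, plastid and mitochondrial transcripts usually carry no stable poly(A) tail. The labels name the standard Affymetrix labelling procedure but do not spell out how the RNA was primed. This limit applies to the plastid signals of every array. The part of the 25S and mitochondrial signals in the plastid difference was not tested.

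In the remaining groups the members also tended to move together from array to array, by smaller amounts. The median of replicate 1 minus replicate 2 over the 47 members was 0.53 in older apices (35 members higher on replicate 1), 0.81 in expanding leaves (46 members higher) and -0.22 in mature leaves (17 members higher), while the median over all genes was 0.02, 0.07 and -0.01. Among the 7 arrays without Apex_5DAS replicate 1, the expanding-leaf replicate 1 was highest for 38 of the 47 members, and older-apex replicate 2 was lowest for 24. The exceptions to the first were psbA, psbC, atpB and ndhH, highest on mature-leaf replicate 1, psbM, atpE and ndhJ, highest on mature-leaf replicate 2, and psbH and rpoB, highest on an older-apex array.

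**Figure D3:**
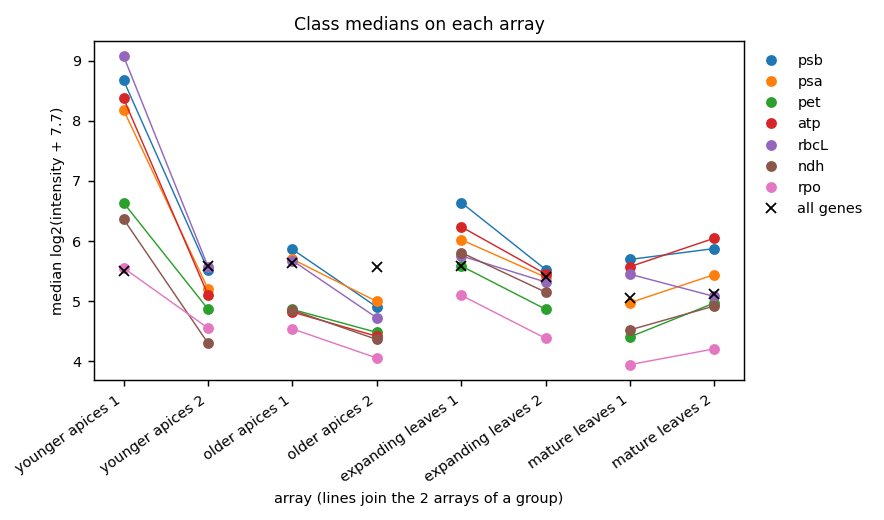
The median log2(intensity + 7.7) of each class (colours) and of all genes (crosses) is plotted for each of the 8 arrays, with lines joining the 2 arrays of a group. The psb median falls from 8.67 to 5.52 between the younger-apex replicates while the all-gene median is 5.51 and 5.58, and the atp median is higher on all 4 leaf arrays than on both older-apex arrays.

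The class medians give the transcript signal of each class of genes in each group. For psb genes the median log2 level was 8.67 and 5.52 in younger apices, 5.86 and 4.91 in older apices, 6.64 and 5.53 in expanding leaves, and 5.70 and 5.88 in mature leaves. For atp genes it was 8.37 and 5.11, then 4.82 and 4.42, 6.24 and 5.45, and 5.58 and 6.05 in the same order. The atp medians of all 4 leaf arrays were thus above both older-apex values. The ndh medians were 6.37 and 4.30, 4.85 and 4.37, 5.81 and 5.15, and 4.52 and 4.92, so that mature leaves lay below expanding leaves and overlapped with older apices. The rpo medians, at 5.55 and 4.55, 4.54 and 4.06, 5.10 and 4.38, and 3.95 and 4.21, followed no clear order of the organs. The gap between the rpo median and the median of the 43 photosynthesis genes was taken within each array. It sets different probe sets against each other, so its size carries no meaning by itself, and the pseudocount compresses it where the rpo signals are weak. It was -2.47 and -0.47 in younger apices, -0.62 and -0.56 in older apices, -0.92 and -0.92 in expanding leaves, and -1.03 and -1.09 in mature leaves. Without Apex_5DAS replicate 1 the gap was wider in both leaf stages than in either apex stage, and the arrays of these groups did not overlap. The same held with pseudocounts of 1.12 (-0.64 to -0.88 on the 3 apex arrays, -1.08 to -1.64 on the leaf arrays) and 27.6 (-0.27 to -0.36 and -0.52 to -0.65), tried after the data were seen. Mature and expanding leaves overlapped at 27.6. Only 4 rpo probe sets enter each median. Of the 8 arrays, rpoB was weak on 7, rpoC2 on 5 and rpoC1 on 4. RpoA was the strongest rpo gene on every array, so each rpo median was set by these weaker genes.

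Expanding leaves were compared with the older apices of the same day. All 43 photosynthesis genes had a higher mean in the expanding leaves, with a median log2 difference of 0.93, against -0.01 for all genes. Over all 47 members the median was 0.82, and rpoB alone lay below 0. With 7 arrays, 5 of 43 tested members were called higher (11.6%, where 5.74% of all genes were called higher) and 0 were called lower (6.83% of all genes). In that fit 19 members had an unadjusted p below 0.05, as did 27.5% of all genes. With 8 arrays limma called 0 of 44 members in a background of 6.3%, and 4 had an unadjusted p below 0.05 (20.8% of all genes did). The differences themselves hold no younger-apex array. What changed was the spread that the fit assigned to each member, whose median SE was 0.69 with 8 arrays and 0.38 with 7.

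The called genes belonged to the ATP synthase, photosystem I and the NADH dehydrogenase-like complex. The alpha subunit gene atpA read 436 and 41.3 in younger apices, 42.7 and 16.8 in older apices, 119 and 104 in expanding leaves, and 57.1 and 92.5 in mature leaves. Its log2 difference between expanding leaves and older apices was 1.76 ± 0.35 (SE, adjusted p = 0.0117) with 7 arrays, and the adjusted p was 0.235 with 8. Both expanding-leaf values were more than 2-fold above the higher older-apex value. For atpB, the catalytic beta subunit, the intensities were 1195 and 43.2 in younger apices, 27.5 and 40.1 in older apices, 98.5 and 65.1 in expanding leaves, and 187 and 152 in mature leaves. For atpE, the epsilon subunit encoded in the same unit, they were 1547 and 35.2 in younger apices, 29.3 and 34.2 in older apices, 110.4 and 57.9 in expanding leaves, and 147 and 172 in mature leaves. Of both genes, each expanding-leaf value exceeded both older-apex values. Their differences were 1.10 ± 0.26 (SE, adjusted p = 0.0235) and 1.16 ± 0.28 (SE, adjusted p = 0.027) with 7 arrays, and the adjusted p with 8 arrays was 0.611 and 0.642. PsaC, the iron-sulfur protein of photosystem I that hands electrons to ferredoxin, gave 60.6 and 2.93 in younger apices, 2.83 and 10.1 in older apices, 40.1 and 28.3 in expanding leaves, and 12.6 and 19.2 in mature leaves. Its difference with 7 arrays was 1.60 ± 0.40 (SE, adjusted p = 0.0287, or 0.228 with 8 arrays). Both older-apex values were at or below the 30th percentile of their arrays, and the estimate ran from 0.86 to 2.39 with other pseudocounts. NdhI, which carries iron-sulfur clusters, gave 833 and 24.9 in younger apices, 30.6 and 14.8 in older apices, 75.4 and 62.9 in expanding leaves, and 26.0 and 37.9 in mature leaves. Its 7-array difference was 1.38 ± 0.31 (SE, adjusted p = 0.02, or 0.522 with 8 arrays).

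Among members that did not pass, ndhC had the next lowest adjusted p. This gene for a membrane subunit of the NADH dehydrogenase-like complex gave 1265 and 328 in younger apices, 143 and 86.9 in older apices, 496 and 182 in expanding leaves, and 493 and 448 in mature leaves. Its difference with 7 arrays was 1.37 ± 0.39 (SE, adjusted p = 0.0508, or 0.208 with 8 arrays). Both expanding-leaf arrays lay above both older-apex arrays for 25 of the 47 members, a pattern that 22.2% of all genes showed. By class, the median differences were 1.13 for atp, 1.07 for ndh, 0.82 for psb, 0.69 for pet, 0.50 for rpo, 0.34 for rbcL and 0.33 for psa. These counts rested on single arrays. The number called was 5 with 7 arrays, 0 without expanding-leaf replicate 1, 13 without expanding-leaf replicate 2, and 2 each without older-apex replicate 2 and without either mature-leaf array, and the median over the members was 0.34 without expanding-leaf replicate 1. With array medians made equal 11 members were called higher and 0 lower, and 65.5% of all calls were increases against 45.7% here.

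**Figure D4:**
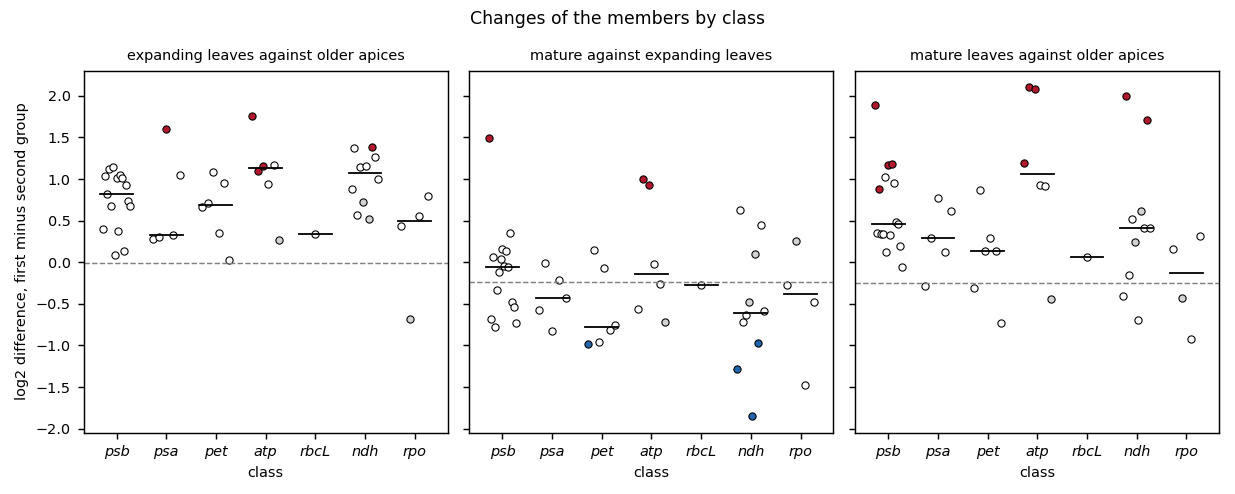
Each point is the log2 difference of 1 member between 2 groups (panels), by class (x axis), from the fit of 7 arrays; red is called higher, blue called lower, white not called, grey not tested, black bars are class medians and the dashed line is the median over all genes. In expanding leaves against older apices 46 of 47 points lie above 0, whereas in mature against expanding leaves the psbA, atpB and atpE points lie above most of the others; with arrays scaled to equal medians the dashed lines of the mature-leaf panels move from -0.24 to -0.02 and 0.06, and the psb, atp and rbcL bars of the second panel move from below to above 0, as does the rpo bar of the third.

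Mature leaves were compared with expanding leaves to follow the plastid genes through the end of leaf growth. Here the members split. With 7 arrays psbA, atpB and atpE rose while petA, ndhA, ndhG and ndhI fell, and the median over the 47 members was -0.33, near the all-gene median of -0.24. The all-gene median depends on the scaling: it was -0.02 when array medians were made equal and -0.03 after quantile normalization, and the member median was then -0.03 and 0.01. With 7 arrays 3 of 43 members were called higher (6.98%, against 10.6% of all genes) and 4 lower (9.3%, against 22.3%), so neither share exceeded the background. With 8 arrays 1 of 44 was called, ndhG, in a background of 21.4%. With array medians made equal or quantile normalization the 7-array counts were 3 higher and 1 lower, and increases made up 63.5% or 46.9% of the calls over all genes, against 32.2% here. By class, the median differences were -0.06 for psb, -0.14 for atp, -0.27 for rbcL, -0.38 for rpo, -0.43 for psa, -0.61 for ndh and -0.78 for pet. The first 3 turned positive with equal array medians, at 0.21 for psb, 0.13 for atp and 0.02 for rbcL, and after quantile normalization, at 0.13, 0.28 and 0.07, while those of rpo, psa, ndh and pet stayed below 0.

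PsbA encodes D1, the photosystem II reaction centre protein that is damaged by light and replaced continuously. Its intensities were 1035 and 65.6 in younger apices, 114 and 76.8 in older apices, 133 and 119 in expanding leaves, and 488 and 281 in mature leaves. Mature leaves exceeded expanding leaves by 1.50 ± 0.28 (SE, adjusted p = 0.00442) with 7 arrays, and the adjusted p was 0.244 with 8. Apart from Apex_5DAS replicate 1, both mature-leaf values were more than 2-fold above every other value. The differences of atpB and atpE were 1.01 ± 0.26 (SE, adjusted p = 0.0173) and 0.93 ± 0.28 (SE, adjusted p = 0.033), with adjusted p of 0.506 and 0.596 with 8 arrays. For both genes the order of levels was therefore older apices, expanding leaves, mature leaves, with no overlap between neighbouring groups. Taken singly, the first of these steps up was free of overlap for 22.2% of all genes, and the second for 19.2%.

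Genes of the NADH dehydrogenase-like complex were among those that fell, although 3 of the 10 ndh genes had a difference above 0. Of these, ndhC differed by 0.63 and ndhJ by 0.45, and neither was called. NdhG, a membrane subunit, gave 60.0 and 13.6 in younger apices, 19.2 and 12.5 in older apices, 63.1 and 30.5 in expanding leaves, and 2.14 and 13.5 in mature leaves. Its difference was -1.85 ± 0.45 (SE, adjusted p = 0.0144) with 7 arrays and -1.85 ± 0.57 (SE, adjusted p = 0.0443) with 8. It ran from -2.71 to -1.06 with other pseudocounts, and mature-leaf replicate 1 was at a low signal. NdhA, another membrane subunit, gave 113 and 23.6 in younger apices, 35.2 and 13.3 in older apices, 74.6 and 29.7 in expanding leaves, and 14.9 and 15.1 in mature leaves. Its difference with 7 arrays was -1.29 ± 0.44 (SE, adjusted p = 0.0484, or 0.146 with 8 arrays). NdhI fell by 0.97 (adjusted p = 0.0411, or 0.541 with 8 arrays). These 3 genes lie in 1 transcription unit, whose 7 members ranged from -1.85 to 0.10. PetA, the gene of cytochrome f, gave 729.9 and 19.7 in younger apices, 22.3 and 16.9 in older apices, 41.5 and 30.2 in expanding leaves, and 11.9 and 16.8 in mature leaves. Its difference with 7 arrays was -0.98 ± 0.31 (SE, adjusted p = 0.0362, or 0.539 with 8 arrays). All mature-leaf values of ndhG, ndhA, ndhI and petA were below both expanding-leaf values, a pattern that 13 of the 47 members and 45.0% of all genes showed. The calls of ndhA, ndhI and petA were lost when array medians were made equal and after quantile normalization, and so was the 8-array call of ndhG, which was lost under 11 of 18 alternatives. Its 7-array call was kept under both scalings. All 4 falls were lost without expanding-leaf replicate 1, the array that was highest for 38 of the 47 members.

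**Figure D5:**
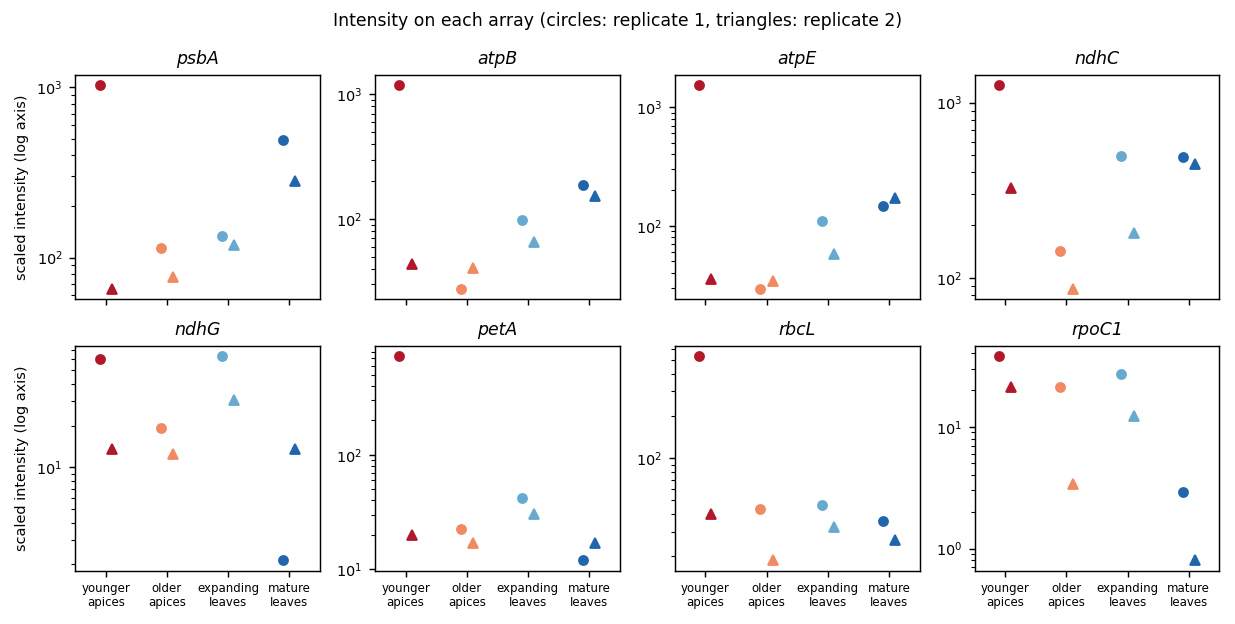
Scaled intensities of 8 members are plotted on a log axis for the 4 groups (x axis), with circles for replicate 1 and triangles for replicate 2. For psbA the mature-leaf points at 488 and 281 lie above all points but younger-apex replicate 1 at 1035, atpB and atpE climb from older apices to mature leaves, and rbcL shows overlapping leaf and apex values.

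Other members differed little between the leaf stages. PsaB, a reaction centre protein of photosystem I, gave 862 and 50.5 in younger apices, 44.3 and 35.7 in older apices, 58.8 and 44.2 in expanding leaves, and 54.6 and 46.9 in mature leaves. It differed by -0.01 between the leaf stages (adjusted p = 0.975 with 7 arrays and 0.995 with 8). PsbH, a small photosystem II subunit, gave 235 and 8.96 in younger apices, 28.2 and 8.06 in older apices, 27.4 and 10.4 in expanding leaves, and 14.0 and 23.0 in mature leaves, with a difference of 0.04. PetG, a small subunit of the cytochrome complex, gave 29.0 and 8.27 in younger apices, 16.8 and 12.7 in older apices, 35.5 and 11.2 in expanding leaves, and 17.1 and 22.2 in mature leaves, with a difference of -0.07. AtpF, a stator subunit of the ATP synthase, gave 127 and 20.0 in younger apices, 15.0 and 10.9 in older apices, 46.0 and 21.6 in expanding leaves, and 27.4 and 36.1 in mature leaves, with a difference of -0.02. For each of psbH, petG and atpF the 2 expanding-leaf replicates differed from each other by more than the group means did. For rbcL the intensities were 531 and 40.1 in younger apices, 43.5 and 18.7 in older apices, 46.3 and 32.2 in expanding leaves, and 36.0 and 26.1 in mature leaves. The Rubisco gene differed by -0.27 between mature and expanding leaves and by 0.06 between mature leaves and older apices, with adjusted p of 0.566 and 0.897 with 7 arrays and of 0.842 and 0.963 with 8. Both of these differences were smaller than the gap between the 2 older-apex arrays themselves.

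Mature leaves against older apices gave the longest list of members called with 7 arrays. With 7 arrays 9 of 43 were called higher (20.9%, where 13.2% of all genes were called higher) and 0 lower, although 29.1% of all genes were called lower. Of the members not called, petB and atpF had an unadjusted p below 0.05. With 8 arrays 1 of 44 was called, ndhC, in a background of 32.6%. The median over the 47 members was 0.34, against -0.24 for all genes, and 39 members lay above the all-gene median. With array medians made equal or quantile normalization the member median was 0.75 in each case and the all-gene median 0.06 and 0.01. Under these settings 13 and 14 members were called higher and 0 lower, while increases made up 65.7% and 48.5% of all calls, against 31.2% here. By class, the median differences were 1.06 for atp, 0.45 for psb, 0.42 for ndh, 0.30 for psa, 0.13 for pet, 0.06 for rbcL and -0.13 for rpo, the last at 0.20 and 0.18 under the same 2 settings.

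The ATP synthase genes led this list. With 7 arrays atpB was 4.31-fold higher after addition of the pseudocount, a log2 difference of 2.11 ± 0.26 (SE, adjusted p = 0.000247), and atpE 4.24-fold, a difference of 2.09 ± 0.28 (SE, adjusted p = 0.000434). With 8 arrays the same differences had adjusted p of 0.147 and 0.201. The atpA difference with 7 arrays was 1.20 ± 0.35 (SE, adjusted p = 0.021, or 0.267 with 8 arrays). The remaining ATP synthase genes were not called: atpF differed by 0.93 and atpH, the ring subunit c, by 0.91. AtpI, at 2.94 and 8.32 in younger apices, 2.35 and 5.66 in older apices, 14.2 and 1.17 in expanding leaves, and 1.34 and 0.321 in mature leaves, was too weak to be tested.

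In photosystem II, psbA differed by 1.90 ± 0.28 (SE, adjusted p = 0.000687, or 0.129 with 8 arrays). PsbC, the antenna protein CP43, gave 365 and 54.7 in younger apices, 83.2 and 51.6 in older apices, 154 and 96.3 in expanding leaves, and 156 and 104 in mature leaves. Its difference was 0.88 ± 0.30 (SE, adjusted p = 0.0404, or 0.324 with 8 arrays). PsbI and psbK encode small subunits and are neighbours in 1 unit. For psbI the intensities were 363 and 75.9 in younger apices, 50.5 and 47.8 in older apices, 176 and 64.0 in expanding leaves, and 129 and 112 in mature leaves, a difference of 1.17 ± 0.37 (SE, adjusted p = 0.0289, or 0.161 with 8 arrays). For psbK they were 400.0 and 80.8 in younger apices, 89.0 and 49.2 in older apices, 216 and 98.2 in expanding leaves, and 192 and 134 in mature leaves, a difference of 1.18 ± 0.37 (SE, adjusted p = 0.0286, or 0.163 with 8 arrays). No value of psbA, psbC, psbI or psbK in older apices reached the mature-leaf values. Both mature-leaf arrays lay above both older-apex arrays for 21 of the 47 members and for 19.7% of all genes. The smallest difference of the class, -0.06, was that of psbZ, whose intensities were 1079 and 48.8 in younger apices, 54.9 and 24.9 in older apices, 111 and 36.1 in expanding leaves, and 24.3 and 51.1 in mature leaves.

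Of the NADH dehydrogenase-like complex, ndhC and ndhJ rose with 7 arrays, and ndhC also with 8. NdhC, whose intensities are given above, differed by 2.00 ± 0.39 (SE, adjusted p = 0.0034) with 7 arrays and 2.00 ± 0.58 (SE, adjusted p = 0.0244) with 8. NdhJ, a subunit of the arm that projects into the stroma, gave 54.2 and 2.93 in younger apices, 1.65 and 2.03 in older apices, 22.4 and 9.82 in expanding leaves, and 21.5 and 25.8 in mature leaves. It differed by 1.71 ± 0.41 (SE, adjusted p = 0.00927, or 0.077 with 8 arrays). Both of its older-apex values were at or below the 30th percentile, and its difference ran from 0.80 to 3.06 with other pseudocounts. NdhK, the gene between them in the same unit, differed by 0.41 and was not called. NdhD, a membrane subunit, gave 204 and 8.43 in younger apices, 24.0 and 15.3 in older apices, 44.5 and 23.2 in expanding leaves, and 14.0 and 19.8 in mature leaves, with a difference of -0.15. NdhH, at 2.68 and 1.87 in younger apices, 0.427 and 0.427 in older apices, 9.12 and 0.374 in expanding leaves, and 9.20 and 1.55 in mature leaves, was too weak to be tested.

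No psa, pet or rpo gene was called between mature leaves and older apices. PsaC had the largest difference of its class, 0.77 ± 0.40 (SE, adjusted p = 0.144, or 0.428 with 8 arrays). PsaI, a small photosystem I subunit, had the smallest, 0.12, and read 79.8 and 18.9 in younger apices, 23.6 and 16.7 in older apices, 51.4 and 12.8 in expanding leaves, and 13.1 and 35.8 in mature leaves. In the cytochrome complex, petB gave 2411 and 25.3 in younger apices, 34.9 and 20.8 in older apices, 67.2 and 36.1 in expanding leaves, and 51.9 and 59.7 in mature leaves. Its difference was 0.86 ± 0.32 (SE, adjusted p = 0.0527, or 0.669 with 8 arrays), just above the threshold with 7 arrays. PetL, a small subunit at 44.9 and 7.47 in younger apices, 14.0 and 5.18 in older apices, 38.6 and 14.8 in expanding leaves, and 9.46 and 11.9 in mature leaves, differed by 0.13.

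Apart from rpoA the polymerase genes were weak, and the 4 showed no shared direction between mature leaves and older apices. RpoA, the alpha subunit, gave 759 and 48.9 in younger apices, 82.0 and 77.5 in older apices, 146 and 83.2 in expanding leaves, and 127 and 63.5 in mature leaves, and the difference was 0.16 (adjusted p = 0.715 with 7 arrays). RpoC1 gave 37.8 and 21.2 in younger apices, 21.2 and 3.42 in older apices, 27.3 and 12.2 in expanding leaves, and 2.89 and 0.801 in mature leaves. Its differences were -0.92 ± 0.52 (SE, adjusted p = 0.186) against older apices and -1.48 ± 0.52 (SE, adjusted p = 0.0558) against expanding leaves with 7 arrays, and with 8 arrays the adjusted p was 0.198 and 0.0648. Both mature-leaf values of rpoC1 were below every other value of the gene. RpoC2 gave 40.8 and 9.18 in younger apices, 11.1 and 5.34 in older apices, 25.9 and 14.2 in expanding leaves, and 14.8 and 9.03 in mature leaves, with a difference of 0.31 between mature leaves and older apices. RpoB, which was not tested, gave 16.2 and 11.4 in younger apices, 8.16 and 13.6 in older apices, 3.31 and 4.16 in expanding leaves, and 1.34 and 12.8 in mature leaves, with a difference of -0.43. These 3 genes encode the beta-type subunits of the enzyme.

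Some of the calls against older apices or expanding leaves withstood every alternative processing that was run, and others did not. Those that held under all 17 alternatives to the 7-array fit were psbA against expanding leaves, and psbA, atpB, atpE and ndhC against older apices. Leaving out mature-leaf replicate 1 or 2 reduced the called members from 9 to 5 or 4 against older apices and from 7 to 1 or 2 against expanding leaves, and leaving out expanding-leaf replicate 2 reduced the latter to 4. Without expanding-leaf replicate 1 the latter count was 5, but all 4 falls (petA, ndhA, ndhG and ndhI) lost their call. The 25S ribosomal RNA signal was 21.3 and 21.0 on the mature-leaf arrays against 0.961 to 4.22 on the older-apex and expanding-leaf arrays. On the mature-leaf arrays the actin probe set at the 3' end exceeded that at the 5' end by a ratio of 2.47 and 2.59. The ratio was 1.40 to 1.73 on the older-apex and expanding-leaf arrays, and 2.39 and 1.59 on the younger-apex arrays. The part of these signals in the mature-leaf differences was not tested.

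Comparisons with the younger apices depended on which of the 2 younger-apex arrays was used. Between older and younger apices, with 8 arrays, all 47 members had a lower mean in older apices, with a median of -1.32, and limma called 0 of 44 in a background of 2.54%, while 14 had an unadjusted p below 0.05 (19.2% of all genes). Without Apex_5DAS replicate 1 the median was -0.06, 21 members lay above 0, and limma called 0 of 43 in a background of 0.938%, with 1 unadjusted p below 0.05 (13.6% of all genes). That member was ndhC, at -1.49 (adjusted p = 0.199). Without Apex_5DAS replicate 2 instead, 36 of 44 members were called lower (81.8%, in a background of 5.94%), with a median of -2.71. By class, the median differences with 8 arrays were -2.12 for rbcL, -2.06 for atp, -1.44 for psb, -1.27 for psa, -1.07 for ndh, -1.04 for pet and -0.94 for rpo. With 7 arrays they were -0.38, -0.37, 0.03, 0.05, -0.11, 0.03 and -0.08 in that order. The number of members called thus ran from 0 to 36 with the choice between 2 arrays of the same label.

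Between mature leaves and younger apices the sign of the median turned with that choice. It was -0.84 with 8 arrays, 0.38 without Apex_5DAS replicate 1 and -2.22 without replicate 2, against -0.23 to -0.25 for all genes in the fits of 8 and 7 arrays. With 8 arrays 1 of 44 members was called in a background of 32.3%: rpoC1 was lower in mature leaves by 1.93 on the log2 scale (adjusted p = 0.0176). Both of its mature-leaf values, 2.89 and 0.801, were low signals, and its difference ran from -3.41 to -0.94 over the alternatives. The rpoC1 call was lost when mature-leaf replicate 1 or mature-leaf replicate 2 was left out. By class, the medians with 8 arrays ran from -2.06 for rbcL to -0.63 for atp, all below 0. With 7 arrays they were 0.98 for atp, 0.51 for psb, 0.34 for ndh, 0.09 for psa, 0.06 for pet, -0.14 for rpo and -0.31 for rbcL, the last 2 turning positive with equal array medians (0.12 and 0.11) and after quantile normalization (0.27 and 0.15). With 7 arrays rpoC1 fell short of the threshold, at -1.61 ± 0.64 (SE, adjusted p = 0.0865). In its place 5 of 43 were called higher (11.6%, in a background of 10.6%) and 0 lower (19.4% of all genes). These were psbA at 2.37 ± 0.34 (SE, adjusted p = 0.00113), psbC at 1.12 ± 0.37 (SE, adjusted p = 0.0466), atpB at 1.79 ± 0.32 (SE, adjusted p = 0.00298), atpE at 1.96 ± 0.34 (SE, adjusted p = 0.00298) and ndhJ at 1.56 ± 0.51 (SE, adjusted p = 0.0439). The calls of psbA, atpB and atpE held under all 16 alternatives to the 7-array fit. Without Apex_5DAS replicate 2, 34 of 44 members were called lower (77.3%, in a background of 20.9%) and 0 higher. With 7 arrays, leaving out either mature-leaf array as well left 3 calls, and equal array medians gave 10 higher and 0 lower, with 68.5% of all calls increases against 35.4% here and 50.6% after quantile normalization. Since these comparisons and those with older apices share the mature-leaf arrays, their values are not independent.

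Most of the measured nuclear genes for subunits of the same complexes were higher in leaves than in older apices. Of 42 listed genes 8 were measured. With 7 and with 8 arrays, 7 of the 8 were called higher in mature leaves than in older apices. These were PSAN, PSBW, PSBY, ATPC1, NdhL, NdhN and NdhS, while ATPC2 was called lower. Of all genes, 13.2% were called higher and 29.1% lower with 7 arrays. With 8 arrays 1022 of 9870 were called higher and 2197 lower. Between expanding leaves and older apices 6 of 8 were called higher with 7 arrays (5.74% of all genes). With 8 arrays 2 of 8 were, NdhL and NdhN (280 of 9870 genes). NdhL, a membrane-anchored subunit of the NADH dehydrogenase-like complex, gave 577 and 334 in younger apices, 350.2 and 288 in older apices, 926 and 849 in expanding leaves, and 1259 and 1335 in mature leaves. Its difference between mature leaves and older apices was 2.00 ± 0.16 (SE) with 7 arrays, beside 2.00 for the plastid gene ndhC and -0.69 for ndhG of the same complex. ATPC1, the gamma subunit of the ATP synthase, gave 4907 and 2634 in younger apices, 2556 and 2571 in older apices, 4205 and 4082 in expanding leaves, and 5555 and 5403 in mature leaves, and NdhN differed by 1.58 ± 0.15 (SE) between expanding leaves and older apices. Between mature and expanding leaves 4 of 8 were called higher with 7 arrays (PSBY, ATPC1, NdhL and NdhS), where 10.6% of all genes were. With 8 arrays 1 was, NdhS, where 683 of 9870 genes were.

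Plastid genes outside the members were called at about the background rate or below it. Of the 22 measured, 14 were tested with 7 arrays and 17 with 8. Between mature leaves and older apices limma called 0 in either fit, with 1 unadjusted p below 0.05 with 7 arrays and 0 with 8 (50.9% and 44.4% of all genes). Between mature and expanding leaves, rpl22, rpl33, cemA and ycf4 were lower with 7 arrays, 4 of 14 where 22.3% of all genes were called lower. With 8 arrays ycf4 alone was called, 1 of 17 in a background of 21.4%. CemA, an envelope membrane protein gene that lies beside petA, gave 276 and 40.3 in younger apices, 62.8 and 29.1 in older apices, 92.7 and 45.2 in expanding leaves, and 9.36 and 23.3 in mature leaves. It differed by -1.66 ± 0.43 (SE, adjusted p = 0.0176, or 0.112 with 8 arrays). Ycf4, which acts in photosystem I assembly, gave 88.6 and 34.6 in younger apices, 41.2 and 12.3 in older apices, 66.4 and 44.6 in expanding leaves, and 12.9 and 13.9 in mature leaves, a difference of -1.56 ± 0.41 (SE, adjusted p = 0.0185, or 0.0431 with 8 arrays). The ribosomal protein gene rpl33 gave 432 and 38.5 in younger apices, 24.8 and 31.7 in older apices, 123 and 45.7 in expanding leaves, and 25.6 and 22.2 in mature leaves, a difference of -1.41 ± 0.38 (SE, adjusted p = 0.0214, or 0.227 with 8 arrays). Of the listed nuclear genes of plastid transcription, none carried a name in the annotation used here, so the polymerase could not be followed on the nuclear side.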

How the data were processed

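The deposited values are linear MAS5 intensities of 22810 ATH1 probe sets on 8 arrays. MAS5 is the one program that the submitters' processing notes name. Its detection calls were not used, and how far the arrays had been scaled before deposit is not given in the sources used here. Per the labels' protocols, total RNA was extracted with a Qiagen RNeasy kit and labelled by the standard Affymetrix procedure.

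Array totals were made comparable by multiplying each array to the median of the 2% trimmed means. The 64 control probe sets were set aside, and 13513 of 14016 annotated probe sets carried 1 gene name. Of these, 13436 matched the RefSeq table (assembly TAIR10.1), giving 13286 genes, with 1 probe set kept for each. Genes above the 30th percentile of an array on at least 2 arrays were tested: 9870 with 8 arrays and 9702 with 7. Differences of log2(intensity + 7.7), the pseudocount being the 20th percentile of all values, were tested two-sided with limma (version 3.58.1, under R 4.3.3), using moderated statistics with an intensity trend and Benjamini-Hochberg adjustment over all genes tested, at a threshold of 0.05. Residual degrees of freedom were 4 with 8 arrays and 3 with 7. The fit with 8 arrays was the main test, and the one without Apex_5DAS replicate 1 was given beside it. The procedure was tested on simulated data.

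All 47 members were accounted for, and values on every array were printed for those with the largest and smallest difference of their class between mature and expanding leaves and between mature leaves and older apices, for each called member, and for psbA, rbcL and the rpo genes. Further members (psbF, psbM, psbT, atpH and the values of a few others) were picked after their values were seen. Members and companion lists were chosen with earlier results of these data known. Alternatives were other scalings, pseudocounts, filters, robust fits, fits without an intensity trend, fits of 2 groups only, a replicate block and leaving out each array. Those that start from 7 arrays, and the list of mitochondrial genes, were added after the data were seen. Replicates carry the same numbers 1 and 2 in each group, but the deviations of same-numbered arrays correlated between -0.09 and 0.31, so the numbers were not taken to pair the arrays.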

Additional observations from a re-analysis of the deposited data

How the results depend on the processing

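With 8 arrays, the number of called members was 0 for older against younger apices, 0 for expanding leaves against older apices, and 1 for each of mature against expanding leaves, mature leaves against older apices and mature leaves against younger apices. For older against younger apices it was 1 after quantile normalization, 1 with the replicate block, and 0 to 36 when each array was left out in turn. For expanding leaves against older apices it was 2 when only the 2 groups were fitted and 0 to 5 over the left-out arrays. For mature against expanding leaves it was 0 with equal array medians, quantile normalization, the pseudocount at percentile 40, no filter or no intensity trend, 2 with the pseudocount at percentile 5, 8 with only the 2 groups, 2 with the replicate block, and 0 to 7 over the left-out arrays. For mature leaves against older apices it was 2 with equal array medians, 0 with the robust fit, 11 with only the 2 groups, 2 with the replicate block, and 0 to 11 over the left-out arrays. For mature leaves against younger apices it was 4 with the replicate block and 0 to 34 over the left-out arrays. The member medians over the left-out arrays ran from -2.71 to -0.063 for older against younger apices and from -2.22 to 0.38 for mature leaves against younger apices.

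With 7 arrays the counts were 0, 5, 7, 9 and 5 in the same order. With the replicate block they were 1, 11, 9, 10 and 5. For expanding leaves against older apices the count was 11 with equal array medians, 1 with no filter, 2 with only the 2 groups and 0 to 13 over the left-out arrays. For mature against expanding leaves it was 4 with equal array medians, quantile normalization or no intensity trend, 3 with no filter, and 1 to 8 over the left-out arrays. For mature leaves against older apices it was 14 after quantile normalization, 5 with no filter and 4 to 11 over the left-out arrays. For mature leaves against younger apices it was 10 with equal array medians, 3 with the pseudocount at percentile 5, 11 with only the 2 groups and 3 to 5 over the left-out arrays, and for older against younger apices 0 to 1. The member median was 0.75 with either scaling for mature leaves against older apices and 0.79 with equal array medians for mature leaves against younger apices. Over the left-out arrays it ran from 0.34 to 1.14 for expanding leaves against older apices and from -0.79 to 0.018 for mature against expanding leaves. No sign of a single called member turned: of 29 such results, 379 alternative values kept the call, 112 lost it and 0 reversed. The causes were not tested. Weak signal is a limit for many members: 14 of 47 were at or below the 30th percentile on both older-apex arrays.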
